A study of Mus musculus with 12 samples.

Results

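The comparison described here is that of untreated B16F10 cells carrying the C435A form of IRF7 with untreated B16F10 cells carrying wild-type IRF7. It takes 6 of the 12 libraries of the series: 3 labelled as IRF7-C435A mutant with the control treatment (mutant control 1 to 3) and 3 labelled as wild-type with the control treatment (wild-type control 1 to 3), as the sample labels give them. All genes of the deposited table were compared, 27503 in number, of which 17590 had enough counts to be tested. B16F10 is a mouse melanoma line. The other 6 libraries came from the same lines after interferon alpha (IFNα), 3 mutant and 3 wild-type. They entered the fit over all 12 libraries, so the estimate of spread behind each SE, p-value and call at rest also draws on them. Their own values are given only where the text says so. The sources used here do not say how the mutant cells were made, whether they descend from 1 clone, or whether the libraries of a group came from separate cultures, so the p-values measure the spread between these libraries, which may be technical. A difference between the lines that is unrelated to IRF7 cannot be told apart from an effect of the substitution.

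IRF7 is a transcription factor that is kept low in most cells, is phosphorylated when viral nucleic acid is sensed, and then switches on the genes of type I interferons. Those interferons act through their receptor, JAK kinases, STAT2 and IRF9 to raise interferon-stimulated genes, among which Irf7 itself is counted. The title of the series names S-nitrosylation, the attachment of a nitric oxide group to a cysteine, and the neuronal nitric oxide synthase NOS1, and the substitution replaces a cysteine with an alanine. At rest, before any IFNα is added, the comparison asks how the cells that carry the changed residue differ from those that do not.

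The control libraries held 62349499 to 63898023 counts in the mutant and 72703468 to 75392539 counts in the wild type. Over 6318 well-expressed genes the log2 ratio of any pair of libraries of 1 group had an SD of 0.187 to 0.247 among the mutant controls and 0.27 to 0.378 among the wild-type controls. Genes of the melanocyte lineage were high in all 6, with Mlana at 875 to 976 FPKM in the mutant controls and 1030 to 1220 FPKM in the wild-type controls. FPKM are fragment counts scaled for transcript length and library depth, so that they allow levels of different genes to be set side by side. Transcripts of another tissue were present in some libraries only. The summed level of 14 markers of lung epithelium was 55.3, 69.9 and 58.6 CPM (counts scaled to a common library size) in the mutant controls, against 48.4, 0.315 and 0.601 in wild-type control 1, 2 and 3. Scgb1a1, a secretory protein of the airway, was listed at 0 in wild-type control 2 and 3. Among the wild-type controls number 1 alone thus shared this feature with the mutant controls, and results are also given with a term for the libraries that hold lung transcripts, or with wild-type control 1 as the sole wild-type control. In bulk RNA, fewer cells of a type and less RNA per cell cannot be told apart.

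Few genes separated the lines at rest by more than the spread between libraries allowed. With edgeR's quasi-likelihood test and Benjamini-Hochberg adjustment, 29 of 17590 genes passed an adjusted p of 0.05, which is 0.165% of those tested. Of these, 15 were higher in the mutant controls (0.0853%) and 14 were lower (0.0796%). The difference was at least 2-fold in 22 of them, 11 higher and 11 lower. In all 29 the 3 mutant and 3 wild-type control libraries did not overlap in FPKM, where among all genes tested 8.73% lay wholly higher and 12.7% wholly lower in the mutant controls. At an unadjusted p under 0.05 there were 1882 genes, 10.7% of those tested, of which 1068 were higher and 814 lower. DESeq2 called 232 of 27503 genes, all 29 among them. In a fit of the 6 control libraries alone 29 genes passed, of which 20 were among the 29 of the fit over all 12 libraries. Where genes overlap on opposite strands their reads cannot be told apart, since the use of strand in counting is not given, and this touches Irf7 with Phrf1, Fabp3 with Zcchc17, Mbp with Rpl21-ps8, Chn2 with Gm15526 and 5830444B04Rik with Cfap74, none of whose partners passed. The 29 pointed the same way in every alternative fit that gave them a value. With wild-type control 1 as the sole wild-type control 6 genes passed, and of the 29 these were Fabp3, Lhfpl4, Mbp, Mgll and Pycard. The number of calls was 14 without mutant control 1, 14 without mutant control 2, 11 without mutant control 3, 14 without wild-type control 2 and 17 without wild-type control 3.

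**Figure D1:**
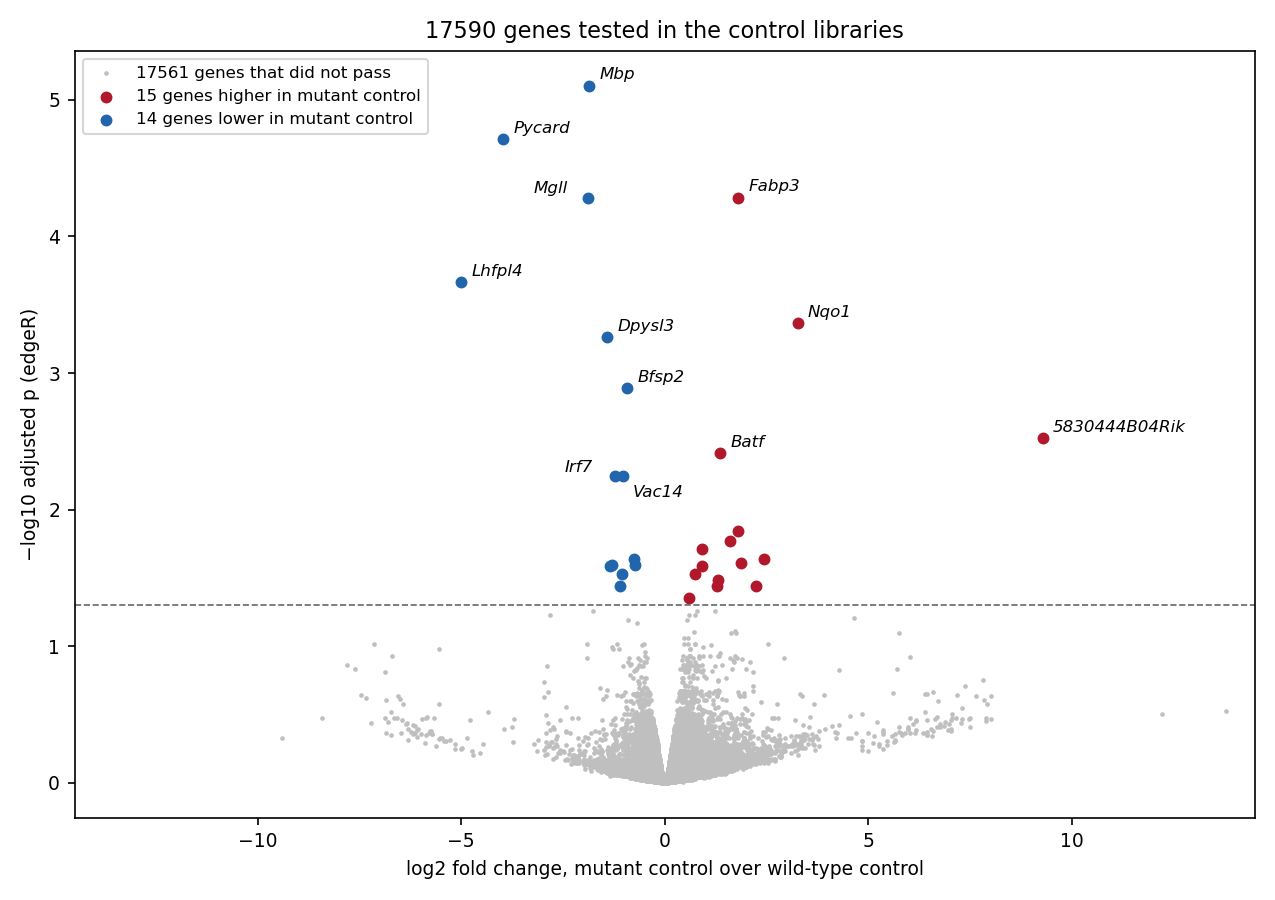
Each point is 1 of 17590 genes, with the log2 fold change of mutant control over wild-type control on the x axis and −log10 of the adjusted p from edgeR on the y axis, where the dashed line marks 0.05. The 15 red points are higher and the 14 blue points lower in the mutant controls, and Mbp, Pycard, Mgll and Fabp3 stand highest on the y axis.

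Irf7, the gene whose product carries the substitution, was among the genes that fell. The residue can be placed in the reference: codon 435 of the longest of the 3 annotated coding transcripts (GENCODE M21, build GRCm38) reads TGC, a codon for cysteine, in exon 10 of 10 on the minus strand of chromosome 7, at 141263294 to 141263296. The coding sequence around it, bases 1273 to 1335 counted from the start codon, is shown because it is the site that differs between the lines, with the codon in capitals.
Irf7 codon 435: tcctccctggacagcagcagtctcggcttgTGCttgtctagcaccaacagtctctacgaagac
This transcript encodes 457 residues, while the other two encode 426 and 425 and have no codon 435. Counts per gene do not show which base a fragment carried, so the substitution itself is not visible in these data.

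Irf7 (ENSMUSG00000025498, chromosome 7, 140842619 to 140846394 in the deposited table) was measured at 4.99, 4.44 and 5.20 FPKM in the mutant controls, against 11.6, 12.8 and 12.5 FPKM in the wild-type controls. Every mutant library lay below every wild-type library, and the values within a line were close to each other. The log2 fold change was −1.23 ± 0.169 (SE, n = 3 libraries per line; adjusted p = 0.0057), a level 2.35-fold lower in the mutant. The call was lost without mutant control 2, where the value was −1.17 (adjusted p = 0.0582), and with wild-type control 1 as the sole wild-type control, where it was −1.23 (adjusted p = 0.174). With a term for lung transcripts it was −1.46 (adjusted p = 0.00556). Phrf1, which overlaps the end of Irf7 on the opposite strand, was at −0.28 ± 0.138 on the log2 scale (adjusted p = 0.495). Of the other genes within 50 kb, Cdhr5, Rassf7 and Deaf1 were tested and did not pass. In the family of 12 interferon regulatory factors Irf7 alone passed, 9 members had positive values, and the median log2 fold change was 0.16, against 0.00 over all genes. That family median was 0.06 with library totals as scaling and −0.05 in limma on log2(FPKM + 1). Irf1, an interferon-induced activator, had 11.2, 9.70 and 10.5 FPKM in the mutant controls, against 7.58, 8.18 and 9.08 FPKM in the wild-type controls. These libraries did not overlap, but the value of 0.44 ± 0.0984 did not pass (adjusted p = 0.117). Irf3, the constitutive partner of Irf7 in interferon induction, lay at 15.3 to 15.8 FPKM in the mutant controls and 17.0 to 17.5 FPKM in the wild-type controls. Its log2 fold change from scaled counts was −0.05 ± 0.101 (adjusted p = 0.905).

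Upstream, the interferon genes themselves gave no call in edgeR. Ifnb1, which encodes interferon beta, was measured at 20.8, 17.9 and 19.9 FPKM in the mutant controls, against 17.9, 16.3 and 13.4 FPKM in the wild-type controls. The groups met at 17.9 FPKM, and the log2 fold change of 0.39 ± 0.165 did not pass (adjusted p = 0.428, unadjusted 95% interval 0.03 to 0.74). Ifna4, an interferon alpha gene with close copies that can share its reads, was at 0.368, 0.837 and 0.831 FPKM in the mutant controls, against 4.35, 2.19 and 1.73 FPKM in the wild-type controls. All mutant libraries were below all wild-type libraries, with a value of −1.92 ± 0.40 that missed the threshold (adjusted p = 0.096) and passed in DESeq2 (adjusted p = 0.00144) and in limma on log2(FPKM + 1) (adjusted p = 0.0431). Among 27 tested genes for interferons, receptors, JAK kinases, STATs and SOCS proteins 0 passed in edgeR, 5 had an unadjusted p under 0.05, and DESeq2 and limma called Ifna4 alone. The receptor chains Ifnar1 and Ifnar2 had log2 fold changes of 0.06 and 0.15, and the signal transducer Stat2 of 0.06, with adjusted p-values of 0.668 or more. The values of Ifnar1 and Stat2 were −0.03 and −0.04 with library totals as scaling. Irf9, the DNA-binding partner of the STATs, was at −0.01 (adjusted p = 0.988), a sign that turned in 5 alternatives. Stat3, a transducer for other cytokines, had 2.09, 2.61 and 2.72 FPKM in the mutant controls, against 3.12, 3.43 and 3.79 FPKM in the wild-type controls, without overlap (−0.37 ± 0.127, adjusted p = 0.333).

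Of 71 antiviral interferon-stimulated genes 1 was higher, 0 were lower and 70 did not pass. The member that rose was Isg20, an exonuclease that degrades RNA. It lay at 28.1, 28.7 and 25.4 FPKM in the mutant controls, against 20.9, 17.7 and 19.6 FPKM in the wild-type controls, and the libraries did not overlap. Its log2 fold change was 0.59 ± 0.107 (adjusted p = 0.044), the value closest to the threshold of all 29. It passed only in the fits without wild-type control 1 or mutant IFNα 3 among the 12 that each left out 1 library, with values from 0.53 to 0.69 over all 12, and missed the threshold with library totals as scaling (0.50), in limma (0.48) and with a term for lung transcripts (0.55, adjusted p = 0.285). The whole list had 46 positive values, a median of 0.13 and 7 calls in DESeq2. At an unadjusted p under 0.05 there were 16 members (12 higher, 4 lower), against 10.7% of all genes. The list median was 0.04 with library totals as scaling, where that of all genes was −0.09, −6.56e-05 in limma on log2(FPKM + 1), and 0.04 with wild-type control 1 as the sole wild-type control. Tgtp1, an interferon-inducible GTPase with a near-identical copy, was at 76.7, 62.2 and 79.3 FPKM in the mutant controls, against 53.4, 42.3 and 44.1 FPKM in the wild-type controls (0.74 ± 0.14, adjusted p = 0.0592). The antiviral GTPases Mx1 and Mx2, whose reads may be shared in part, were at 0.59 ± 0.142 and 0.61 ± 0.131 (adjusted p = 0.139 and 0.105), each without overlap. Isg15, the ubiquitin-like modifier, was at 3782, 3738 and 3728 FPKM in the mutant controls, against 3290, 2948 and 2503 FPKM in the wild-type controls. It stood among the most abundant transcripts of both lines and had a value of 0.45 ± 0.161 (adjusted p = 0.348). Rsad2, Ifit1 and Usp18 overlapped between the lines, at 0.13, −0.07 and 0.17, with adjusted p-values of 0.714 or more. Phf11d, a member of an interferon-inducible family, was at 0.74 ± 0.173 (adjusted p = 0.130).

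Genes that display antigen to T cells gave no call in edgeR, although several had higher values in the mutant. Of 25 tested genes of MHC class I presentation 0 passed, and DESeq2 called 1. At an unadjusted p under 0.05 there were 11, all of them higher, against 1068 of 17590 genes higher over all. The median was 0.28 with 16 positive values, 0.19 with library totals as scaling, 0.15 with wild-type control 1 as the sole wild-type control and 0.16 without wild-type control 3. In limma on log2(FPKM + 1) it was 0.0056, where that of all genes was −0.09. H2-K1, a class I heavy chain whose copies can share reads, lay at 103, 92.2 and 96.8 FPKM in the mutant controls, against 77.0, 71.6 and 76.1 FPKM in the wild-type controls. The libraries did not overlap, and the value of 0.47 ± 0.113 did not pass (adjusted p = 0.138). The peptide transporter subunits Tap1 and Tap2 were at 0.36 and 0.41 (adjusted p = 0.282 and 0.301) and the heavy chain H2-M3 at 1.10 ± 0.301 (adjusted p = 0.217). B2m, the common light chain, and H2-D1 overlapped between the lines, at 0.08 each, and were at −0.01 and −0.02 with library totals as scaling. Nlrc5, the class I transactivator, was at −0.14 (adjusted p = 0.847), and Cd274, which encodes the checkpoint ligand PD-L1, at 0.44 ± 0.156 (adjusted p = 0.348). Of 11 class II presentation genes 0 passed, 5 had an unadjusted p under 0.05, all higher, DESeq2 called 2, and the median was 0.72. Between the IFNα-treated lines the class II median was −0.14, with 5 positive values, and the class I median 0.37. The lung markers summed to 0.791, 0.315 and 74.2 CPM in mutant IFNα 1, 2 and 3, against 53.5, 50.8 and 67.3 in wild-type IFNα 1, 2 and 3. The part of lung transcripts in these medians was not tested. Cd74, the invariant chain, had 14.4, 13.4 and 14.8 FPKM in the mutant controls, against 9.91, 9.41 and 8.18 FPKM in the wild-type controls (0.72 ± 0.196, adjusted p = 0.212). Leukocyte markers moved with these genes: 16 of 17 tested had positive values (median 0.56), and the summed level of the 24 measured was 153 to 167 CPM in the mutant controls, against 137, 97.9 and 94.2 in wild-type control 1, 2 and 3. A large part of that sum came from Lyz2 alone. Lyz2 was at 56.8, 50.9 and 56.3 FPKM in the mutant controls, against 46.7, 24.3 and 25.9 FPKM in wild-type control 1, 2 and 3. Ptprc, the pan-leukocyte antigen, stood at 0.217 to 0.259 FPKM in the mutant controls and 0.162 to 0.205 FPKM in the wild-type controls, and was not at 0 in any of these libraries. The part of leukocyte transcripts in the presentation genes was not tested. With the term for lung transcripts the class II median was 0.39, and with wild-type control 1 as the sole wild-type control it was 0.19.

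Of 37 tested chemokines and cytokines 0 passed in edgeR, 9 had an unadjusted p under 0.05 (10.7% of all genes) and DESeq2 called 2. Ccl5, an attractant of T cells, was at 113, 115 and 118 FPKM in the mutant controls, against 78.8, 86.7 and 85.8 FPKM in the wild-type controls. The lines did not overlap, and the value of 0.56 ± 0.148 did not pass (adjusted p = 0.197). Cxcl10, which attracts T cells through CXCR3, lay at 131, 149 and 150 FPKM in the mutant controls, against 140, 159 and 181 FPKM in the wild-type controls, with overlap (−0.05 ± 0.117, adjusted p = 0.912). Cxcl2, a neutrophil attractant, was at 0.78 ± 0.211 (adjusted p = 0.212) and Ccl27a, a skin chemokine, at 0.82 ± 0.245 (adjusted p = 0.251). The list median of 0.33 was 0.05 with the term for lung transcripts and 0.01 with wild-type control 1 as the sole wild-type control.

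Among the genes that sense nucleic acid and relay danger signals, 2 of 36 were lower (0.0796% of all genes), 0 were higher and 34 did not pass. The 2 lower genes were Irf7, described above, and Pycard. Pycard encodes ASC, the adaptor through which inflammasome sensors recruit caspase-1. It (ENSMUSG00000030793, chromosome 7, 127588880 to 127593039) was measured at 0.385, 0.414 and 0.455 FPKM in the mutant controls, against 7.97, 7.26 and 5.94 FPKM in the wild-type controls. The mutant libraries were close to the floor of expression and far from the lowest wild-type library. The log2 fold change was −3.98 ± 0.298 (adjusted p = 1.94e-05), or 15.8-fold lower, and it passed in every alternative run, including wild-type control 1 as the sole wild-type control (−4.23, adjusted p = 0.000365). Irf7 and Pycard were the 2 lower genes called on chromosome 7. Aim2, a DNA sensor that signals through ASC, lay at 0.474, 0.735 and 0.679 FPKM in the mutant controls, against 0.0982, 0.237 and 0.265 FPKM in the wild-type controls. These libraries did not overlap, and the value of 1.75 ± 0.352 missed the threshold (adjusted p = 0.0795). Zbp1, a sensor of left-handed nucleic acid, was at 0.56 ± 0.133 without overlap (adjusted p = 0.136). The list had 23 negative values of 36 and a median of −0.13. At an unadjusted p under 0.05 there were 2 higher and 9 lower, against 1068 higher and 814 lower of all 17590 genes.

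The start regions of 4 called genes are shown, 250 bases before to 50 after the RefSeq gene start on build GRCm38.p6, with CG dinucleotides in capitals. Irf7 is shown because its product carries the substitution, and Pycard, Nqo1 and Lhfpl4 because of their large fold changes. They were chosen after their values were seen.
Irf7 (chr7:141266375-141266674, minus strand): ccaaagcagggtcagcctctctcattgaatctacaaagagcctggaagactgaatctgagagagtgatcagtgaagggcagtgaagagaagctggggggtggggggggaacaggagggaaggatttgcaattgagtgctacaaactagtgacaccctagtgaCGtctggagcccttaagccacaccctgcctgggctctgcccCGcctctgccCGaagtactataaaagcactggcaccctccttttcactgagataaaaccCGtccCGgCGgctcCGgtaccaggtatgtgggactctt
Pycard (chr7:127993818-127994117, minus strand): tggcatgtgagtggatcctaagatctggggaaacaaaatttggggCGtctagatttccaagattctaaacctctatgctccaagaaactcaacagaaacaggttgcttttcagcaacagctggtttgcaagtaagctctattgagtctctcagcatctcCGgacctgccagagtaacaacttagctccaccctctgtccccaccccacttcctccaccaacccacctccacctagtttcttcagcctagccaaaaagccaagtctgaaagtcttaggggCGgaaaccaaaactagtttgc
Nqo1 (chr8:107403156-107403455, minus strand): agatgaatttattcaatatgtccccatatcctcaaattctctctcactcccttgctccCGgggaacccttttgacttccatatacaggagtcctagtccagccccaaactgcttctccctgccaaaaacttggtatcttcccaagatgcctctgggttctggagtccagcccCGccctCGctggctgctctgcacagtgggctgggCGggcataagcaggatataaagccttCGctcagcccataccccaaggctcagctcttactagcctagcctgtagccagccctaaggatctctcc
Lhfpl4 (chr6:113195335-113195634, minus strand): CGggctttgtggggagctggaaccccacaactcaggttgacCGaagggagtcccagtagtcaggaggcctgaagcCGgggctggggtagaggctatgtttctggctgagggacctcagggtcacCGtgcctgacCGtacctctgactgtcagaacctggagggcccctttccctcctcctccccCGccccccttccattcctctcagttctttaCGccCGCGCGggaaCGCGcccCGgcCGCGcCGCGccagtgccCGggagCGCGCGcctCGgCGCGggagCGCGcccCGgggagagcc
The windows differ in their CG content, with 7 such dinucleotides in Irf7, 3 in Pycard, 5 in Nqo1 and 27 in Lhfpl4, against a median of 21 over the 11643 tested genes with a window. Where a gene had several windows, the medians take the one with most CG. The median was 8 over the 12 higher genes that had a window and 19 over the 11 lower ones. Genes were counted if any of their windows held a match, searched on both strands. The interferon-stimulated response element (GAAA, any pair of bases, GAAA) was in 0 of the 12 and 0 of the 11 genes, against 3.77% of all tested genes with a window. The antioxidant response element TGACNNNGC was in 3 of the 12 and 2 of the 11, against 16.9% of those genes, with the match of Irf7 starting 245 bases before the gene start. The AP-1 site TGANTCA was in 1 of the 12 and 1 of the 11, against 6.68%. A run can match the last 2 motifs at once, and a match or its lack in this window describes the letters only.

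Genes of redox and nitric oxide chemistry showed 1 large difference. Nqo1 (ENSMUSG00000003849, chromosome 8, 108114857 to 108129838), a quinone reductase and a classical target of the transcription factor NRF2, rose in the mutant. It was at 7.22, 7.56 and 5.70 FPKM in the mutant controls, against 1.09, 0.662 and 0.489 FPKM in the wild-type controls. The lowest mutant library was several times the highest wild-type library. The log2 fold change was 3.27 ± 0.34 (adjusted p = 0.00043), or 9.62-fold, with values from 2.98 to 3.68 and a call in each of the 12 fits that left out 1 library. With wild-type control 1 as the sole wild-type control it was 2.65 (adjusted p = 0.0791). The other 36 tested NRF2 targets did not pass, 25 of all 37 had negative values, and the list median was −0.08. Hmox1, heme oxygenase, was at 77.0, 81.8 and 73.1 FPKM in the mutant controls, against 93.5, 113 and 126 FPKM in the wild-type controls, which is the direction opposite to Nqo1 (−0.41 ± 0.118, adjusted p = 0.228). Gclm, of glutathione synthesis, was at −0.42 ± 0.145 (adjusted p = 0.335). Of 23 tested glutathione transferases 0 passed in edgeR, 5 were at an unadjusted p under 0.05 (10.7% of all genes), and calls numbered 2 in DESeq2 and 1 in limma. Mgst1, a membrane-bound member, was at 10.6, 12.6 and 9.61 FPKM in the mutant controls, against 23.1, 19.7 and 16.5 FPKM in the wild-type controls (−0.77 ± 0.19, adjusted p = 0.151). Sod1, the cytosolic superoxide dismutase encoded on chromosome 16, was at 153, 141 and 141 FPKM in the mutant controls, against 108, 104 and 100 FPKM in the wild-type controls, without overlap (0.57 ± 0.116, adjusted p = 0.0873).

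Of 30 tested genes for nitric oxide synthesis and the handling of S-nitrosothiols 0 passed in edgeR, and DESeq2 called 1. At an unadjusted p under 0.05 there were 2, 1 in each direction, against 10.7% of all genes. Nos1 and Nos2 were near the limit of detection. Nos1, the neuronal synthase, lay at 0.00548, 0.0239 and 0.00642 FPKM in the mutant controls, against 0.0047, 0.0232 and 0.0227 FPKM in the wild-type controls. At these levels no difference could be seen in either direction (−0.36 ± 1.24, adjusted p = 0.946), and the sign turned with wild-type control 1 as the sole wild-type control. Nos2, the inducible synthase, had 0, 12 and 7 counts in the mutant controls, against 10, 8 and 0 in the wild-type controls, too few to be tested. Nos3, the endothelial synthase, was at 0.402 to 0.789 FPKM in the mutant controls and 0.478 to 0.696 FPKM in the wild-type controls (−0.01 ± 0.294, adjusted p = 0.992, unadjusted 95% interval −0.64 to 0.61), and its sign turned in 5 alternatives. Ddah1, which breaks down an inhibitor of the synthases, had 0.180, 0.219 and 0.228 FPKM in the mutant controls, against 0.554, 0.444 and 0.632 FPKM in the wild-type controls. The lines did not overlap, and the value of −1.26 ± 0.271 did not pass (adjusted p = 0.105). Txnrd2, the mitochondrial thioredoxin reductase, which is also encoded on chromosome 16, was at 0.51 ± 0.142 (adjusted p = 0.218).

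Genes of lipid metabolism were found on both sides. Fabp3 (ENSMUSG00000028773, chromosome 4, 130202388 to 130209256), the fatty acid binding protein of heart muscle, was at 49.9, 40.3 and 36.6 FPKM in the mutant controls, against 14.8, 10.7 and 13.2 FPKM in the wild-type controls. All mutant libraries stood well above all wild-type libraries, with a log2 fold change of 1.81 ± 0.153 (adjusted p = 5.19e-05), or 3.50-fold. Mgll (ENSMUSG00000033174, chromosome 6, 88701394 to 88805342), the lipase that releases fatty acid and glycerol from monoacylglycerols, fell. It was at 1.09, 1.04 and 0.820 FPKM in the mutant controls, against 3.39, 3.98 and 4.38 FPKM in the wild-type controls. The groups were far apart, at −1.88 ± 0.16 (adjusted p = 5.19e-05), or 3.69-fold lower. Both genes passed in every alternative run. Vac14, the scaffold of the lipid kinase complex that makes phosphatidylinositol bisphosphate on endosomes, fell as well. It was at 3.19, 3.75 and 3.47 FPKM in the mutant controls, against 6.09, 7.84 and 9.04 FPKM in the wild-type controls. No library overlapped, and the value was −1.03 ± 0.141 (adjusted p = 0.0057), lost without mutant control 1 (−0.97), without mutant control 3 (−1.04) and with wild-type control 1 as the sole wild-type control (−0.80). Apod, a lipocalin that carries small lipids, rose, at 13.5, 10.4 and 12.7 FPKM in the mutant controls, against 7.85, 7.01 and 8.74 FPKM in the wild-type controls. Its value of 0.73 ± 0.125 (adjusted p = 0.0297) passed in 6 of the 12 fits without 1 library and missed the threshold without mutant control 1 or 3, any wild-type control or wild-type IFNα 2, with a range of 0.66 to 0.84 over the 12. Apod also missed it with library totals as scaling, without a filter and in the 6 control libraries alone. The same held in the limma fits, with a replicate block and with the term for lung transcripts. Elovl4, an elongase of very long fatty acids that was chosen after its values were seen, fell by 1.04 ± 0.177 on the log2 scale (adjusted p = 0.0298), with 0.850, 0.718 and 0.686 FPKM in the mutant controls, against 1.68, 1.47 and 1.85 FPKM in the wild-type controls. That call was lost without any control library, wild-type IFNα 2 or wild-type IFNα 3 (−1.13 to −0.98 over the 12 fits). Of the 34 tested genes of fatty acid and lipid handling 1 (Fabp3) was higher, 0 were lower and 33 did not pass, at a median of −0.06. At an unadjusted p under 0.05 there were 4 higher and 2 lower, against 10.7% of all genes in either direction.

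Of 27 cholesterol synthesis genes 0 passed in edgeR, but 23 had negative values, 6 of them at an unadjusted p under 0.05, and DESeq2 called 1. Over all genes 814 of 17590 were lower at that p. The median was −0.20, against 0.00 over all genes, −0.30 with library totals as scaling and −0.11 with wild-type control 1 as the sole wild-type control. Sqle, squalene epoxidase, was at 5.18, 4.75 and 4.52 FPKM in the mutant controls, against 6.22, 6.71 and 8.64 FPKM in the wild-type controls (−0.47 ± 0.125, adjusted p = 0.201). Hsd17b7, a reductase of the same pathway, was at −0.57 ± 0.168 (adjusted p = 0.243). In both genes wild-type control 3 was the highest library.

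Mbp, Bfsp2, Clu and Chn2 were lower in the mutant. Mbp (ENSMUSG00000041607, chromosome 18, 82493271 to 82603762), which encodes myelin basic protein, had the smallest adjusted p of all genes. It was measured at 11.1, 11.6 and 11.7 FPKM in the mutant controls, against 37.0, 46.6 and 51.5 FPKM in the wild-type controls. The mutant libraries were nearly equal and the lowest wild-type library was over 3 times as high. The log2 fold change was −1.87 ± 0.124 (adjusted p = 7.87e-06), a level 3.65-fold lower, and it passed in every alternative run. Bfsp2, a beaded-filament protein of the lens, was at 42.2, 37.6 and 39.5 FPKM in the mutant controls, against 72.2, 78.3 and 92.8 FPKM in the wild-type controls. The groups did not overlap, with a value of −0.92 ± 0.108 (adjusted p = 0.00129), lost only with wild-type control 1 as the sole wild-type control (−0.85). Clu, the secreted chaperone clusterin, was at 6.86, 5.83 and 6.47 FPKM in the mutant controls, against 10.4, 10.8 and 13.2 FPKM in the wild-type controls (−0.74 ± 0.119, adjusted p = 0.0231). It missed the threshold in 5 of the 12 fits without 1 library, those without any mutant control, wild-type control 2 or wild-type control 3, at −0.79 to −0.68. Chn2, a GTPase-activating protein for Rac, was at 3.18, 2.64 and 3.10 FPKM in the mutant controls, against 5.13, 4.85 and 5.80 FPKM in the wild-type controls (−0.72 ± 0.119, adjusted p = 0.0255). It missed the threshold in the 6 fits that each left out a control library, at −0.77 to −0.64. Both lay wholly below the wild type, and both calls were lost with the term for lung transcripts (adjusted p = 0.137 for Clu and 0.0978 for Chn2).

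Other called genes, at lower levels, were chosen after their values were seen. Lhfpl4, which anchors inhibitory neurotransmitter receptors at synapses, had 8, 3 and 6 counts in the mutant controls, against 174, 204 and 332 counts in the wild-type controls. The mutant libraries were almost empty of it, and the value of −5.01 ± 0.486 (adjusted p = 0.000217) passed in each alternative that gave it a value. Dpysl3, a cytoskeletal protein of growing axons, was at 0.547, 0.602 and 0.589 FPKM in the mutant controls, against 1.37, 1.55 and 2.07 FPKM in the wild-type controls (−1.41 ± 0.151, adjusted p = 0.000544). The synaptic vesicle protein Sv2a, the adhesion protein Adam23 and the tetraspanin Tspan2 fell by 1.10, 1.28 and 1.34 on the log2 scale (adjusted p = 0.0363, 0.0255 and 0.026). Sv2a passed only in the 3 of the 12 fits without 1 library that left out a mutant IFNα library (−1.18 to −0.96 over all 12). Adam23 missed the threshold without any mutant control or wild-type control 3 (−1.44 to −1.02), and Tspan2 without any mutant control or wild-type control 1 or 2 (−1.47 to −1.14). All 3 missed it with the term for lung transcripts. In the opposite direction, Ptn, the secreted growth factor pleiotrophin, rose to 0.559, 0.572 and 0.803 FPKM in the mutant controls, against 0.0896, 0.148 and 0.203 FPKM in the wild-type controls (2.24 ± 0.395, adjusted p = 0.0363), a call kept only without a mutant IFNα library, at 2.01 to 2.45 over the 12 fits. Of a separate list of neuronal and synaptic genes, with 17 tested, 0 passed in edgeR and DESeq2 called 2. At an unadjusted p under 0.05 there were 7 (4 higher, 3 lower), against 10.7% of all genes. Tubb3, a neuronal tubulin, was at 55.7, 62.9 and 59.4 FPKM in the mutant controls, against 78.6, 88.6 and 97.6 FPKM in the wild-type controls (−0.47 ± 0.109, adjusted p = 0.130).

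**Figure D2:**
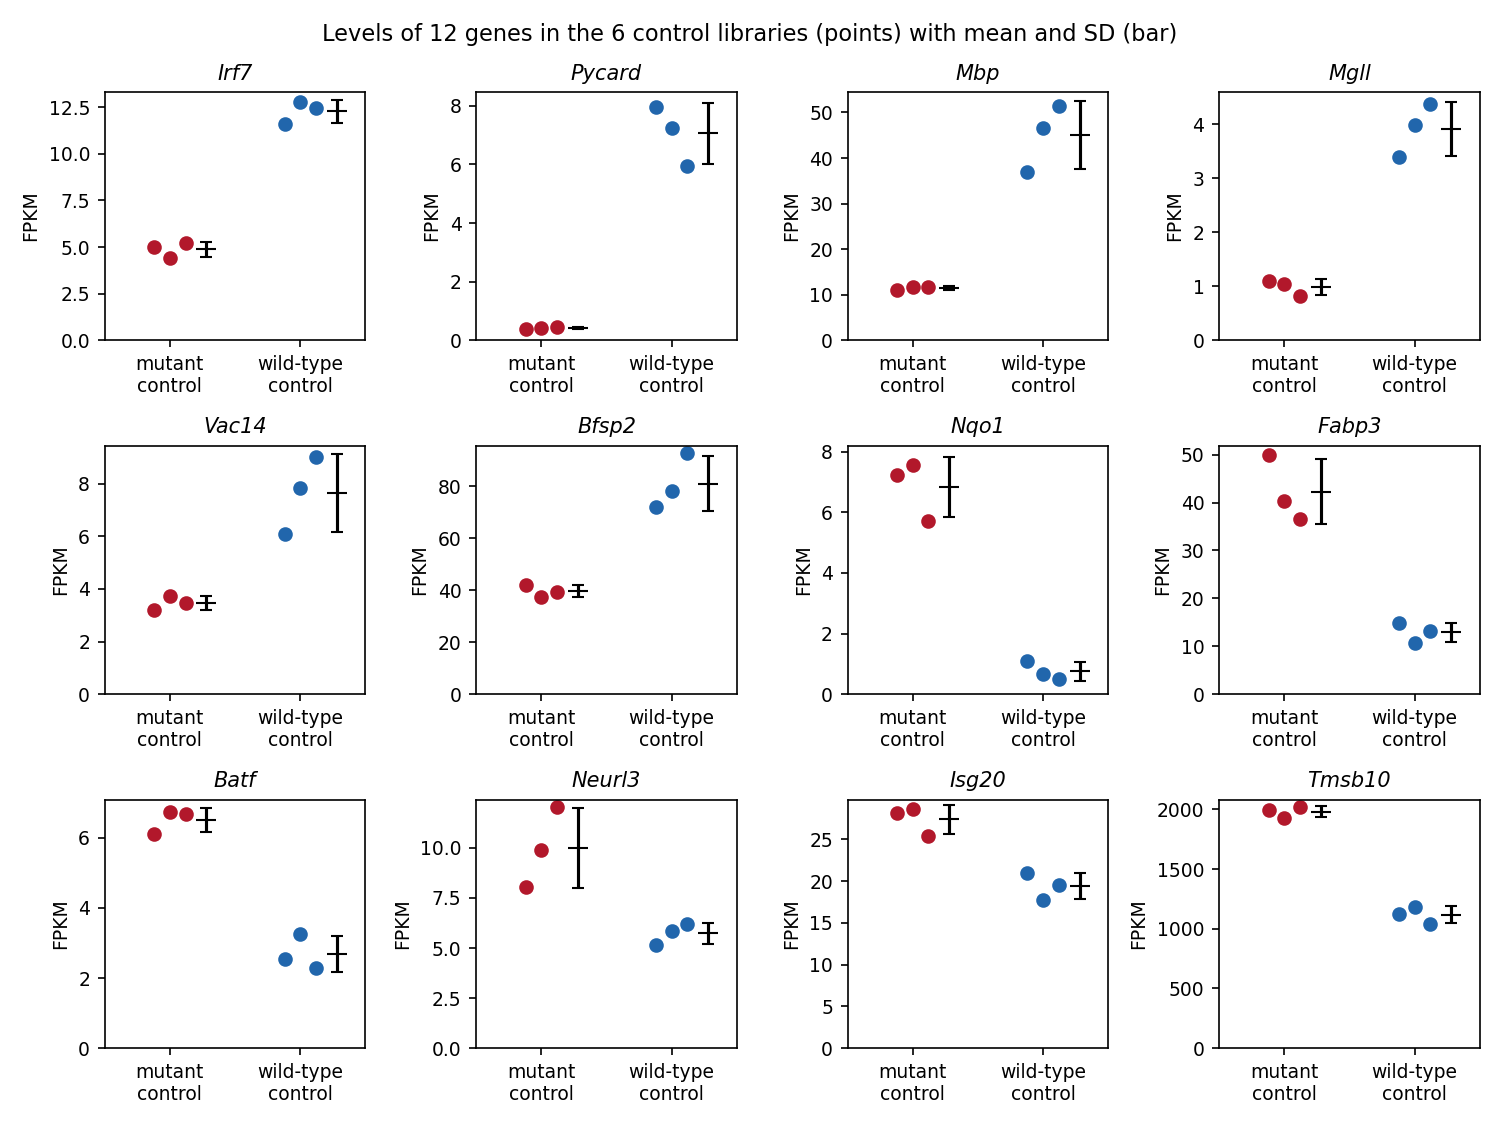
FPKM on the y axes, which start at 0, of 12 genes in the 3 mutant control libraries (red, left) and the 3 wild-type control libraries (blue, right), with the mean and SD beside each group. All 12 were named by a rule that asked for no overlap between the lines, so its absence here is not a result. Pycard lies at 0.385 to 0.455 in the mutant, against 5.94 to 7.97 in the wild type.

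Among 23 tested genes of the neural crest and Schwann lineage 1 (Mbp) was lower, 0 were higher and 22 did not pass, at a median of −0.10. At an unadjusted p under 0.05 there were 6 higher and 3 lower, against 10.7% of all genes in either direction. Nes, the intermediate filament nestin, came next among those lower, at 4.47, 5.34 and 5.11 FPKM in the mutant controls, against 7.31, 8.17 and 10.3 FPKM in the wild-type controls (−0.68 ± 0.133, adjusted p = 0.0679). Sox10, the transcription factor of the lineage, overlapped between the lines, at 109 to 124 FPKM in the mutant controls and 122 to 153 FPKM in the wild-type controls (−0.13 ± 0.167, adjusted p = 0.826). Sox2, a stem cell factor, was at 0.373, 0.654 and 1.06 FPKM in the mutant controls, against 0.197, 0.190 and 0.240 FPKM in the wild-type controls (1.83 ± 0.523, adjusted p = 0.226). Of 32 genes of the melanocyte lineage and pigmentation 0 passed in edgeR, 27 had negative values, 8 of them at an unadjusted p under 0.05, and DESeq2 called 2. Over all genes 814 of 17590 were lower at that p. The median was −0.21, against 0.00 over all genes, and lay between −0.31 and −0.16 with library totals as scaling and with the term for lung transcripts. Mc1r, the melanocortin receptor, was at 16.4, 16.02 and 17.5 FPKM in the mutant controls, against 21.1, 24.2 and 29.8 FPKM in the wild-type controls, without overlap (−0.48 ± 0.123, adjusted p = 0.170). Gpr143 and Slc45a2, both of the melanosome, were at −0.40 and −0.33 (adjusted p = 0.313 and 0.379). Mitf, the master regulator, and Tyr, the tyrosinase that begins melanin synthesis, overlapped at −0.08 and −0.16 (adjusted p = 0.884 and 0.735). Of 25 tested genes of the mesenchymal or dedifferentiated melanoma state 0 passed in edgeR and DESeq2 called 2. At an unadjusted p under 0.05 there were 8 (4 higher, 4 lower), against 10.7% of all genes. Tnc, a matrix protein of invasive cells, was at 1.20, 1.07 and 1.83 FPKM in the mutant controls, against 0.253, 0.515 and 0.583 FPKM in the wild-type controls (1.72 ± 0.378, adjusted p = 0.117).

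Batf, a leucine zipper factor that pairs with JUN and with interferon regulatory factors in lymphocytes, was at 6.11, 6.72 and 6.68 FPKM in the mutant controls, against 2.55, 3.27 and 2.28 FPKM in the wild-type controls. The lines were well apart, at 1.36 ± 0.177 (adjusted p = 0.00385), or 2.56-fold, a call kept in each of the 12 fits without 1 library and with the term for lung transcripts (1.36, adjusted p = 0.0331). The call was lost with wild-type control 1 as the sole wild-type control (1.36, adjusted p = 0.0815). The other 17 AP-1 factors tested did not pass, at a list median of 0.13 (0.03 with library totals as scaling, −0.01 in limma). Atf3, the next of them, was at 25.4, 27.2 and 25.9 FPKM in the mutant controls, against 20.3, 20.6 and 25.0 FPKM in the wild-type controls (0.36 ± 0.0999, adjusted p = 0.218). Neurl3, a ubiquitin ligase linked to inflammation, was at 8.05, 9.91 and 12.1 FPKM in the mutant controls, against 5.16, 5.83 and 6.22 FPKM in the wild-type controls. The libraries did not overlap (0.91 ± 0.142, adjusted p = 0.0195), and the call was lost without mutant control 2 or 3 or any wild-type control, at 0.74 to 0.94. It was also lost with library totals as scaling, in the 6 control libraries alone, with a replicate block and in limma on log2(FPKM + 1). Tmsb10, a beta-thymosin that binds actin monomers, was the most abundant of the 29 genes, at 1995, 1928 and 2022 FPKM in the mutant controls, against 1122, 1185 and 1043 FPKM in the wild-type controls. The groups were clearly apart (0.92 ± 0.154, adjusted p = 0.026), but the call was lost in the 6 fits that each left out a control library, at 0.81 to 0.99.

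The remaining higher genes were chosen after their values were seen. The kinase Syk, which relays signals from immune receptors, stood at 0.571, 0.499 and 0.499 FPKM in the mutant controls, against 0.272, 0.206 and 0.206 FPKM in the wild-type controls (1.27 ± 0.223, adjusted p = 0.0363). Prr7, a membrane adaptor found at synapses and in T cells, was at 1.15, 1.69 and 1.44 FPKM in the mutant controls, against 0.506, 0.485 and 0.501 FPKM in the wild-type controls (1.60 ± 0.246, adjusted p = 0.0168). Trmt61b, a mitochondrial RNA methyltransferase, was at 1.14, 0.974 and 0.932 FPKM in the mutant controls, against 0.334, 0.407 and 0.596 FPKM in the wild-type controls (1.301 ± 0.225, adjusted p = 0.0328). These 3 did not overlap between the lines. Syk missed the threshold without any mutant control, wild-type control 2 or 3, or wild-type IFNα 1 or 2 (1.14 to 1.45 over the 12 fits). Prr7 missed it without mutant control 2 or 3 or wild-type control 2 or 3 (1.46 to 1.74), and Trmt61b without any mutant control, wild-type control 1 or 2, or wild-type IFNα 1 (1.16 to 1.48). Of the predicted genes, 5830444B04Rik, which lies within Cfap74 on the opposite strand, had 48, 56 and 98 counts in the mutant controls and 0 in each wild-type control. It was at least 84.2-fold higher in the mutant, taking 3 counts over the wild-type group as the limit that a count of 0 allows (adjusted p = 0.003). Cfap74 itself was at 0.31 on the log2 scale (adjusted p = 0.626). Gm32857, Gm8543 and Gm47692 rose by 2.44, 1.87 and 1.80 on the log2 scale (adjusted p = 0.0231, 0.0247 and 0.0144). Each of these 3 lost its call with the term for lung transcripts. Over the 12 fits their values were 2.24 to 2.90, 1.70 to 1.97 and 1.65 to 1.89, and the calls were lost without most of the control libraries: 5 of the 6 for Gm32857 (all but wild-type control 1), 6 for Gm8543 and 5 for Gm47692 (all but mutant control 2).

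Large sets of housekeeping genes leaned 1 way without a call. Of 40 cytosolic ribosomal protein genes 0 passed in edgeR, 39 had positive values, 15 of them at an unadjusted p under 0.05, and DESeq2 called 1. Over all genes 1068 of 17590 were higher and 814 lower at that p. Their median was 0.30, 0.22 with library totals as scaling and 0.15 with wild-type control 1 as the sole wild-type control. The median deviation of these genes from their mean over the 6 control libraries was 0.17, 0.15 and 0.19 in the mutant controls, against 0.02, −0.09 and −0.46 in wild-type control 1, 2 and 3, so that wild-type control 3 stood lowest. Rps2 was at 3849, 3977 and 4445 FPKM in the mutant controls, against 2894, 3186 and 3530 FPKM in the wild-type controls (0.46 ± 0.128, adjusted p = 0.225), with processed copies that may share its reads. Values went with transcript length: over 12321 genes with a known length, the median log2 fold change was 0.17 in the shortest of 5 equal length classes and −0.11 in the longest, and the ribosomal genes have a median length of 1100 bases against 3160 bases over all. The part of length in these values was not tested. Of 43 genes of oxidative phosphorylation 0 passed in edgeR or DESeq2, 6 had an unadjusted p under 0.05, all higher, and the median was 0.06 (−0.04 with library totals as scaling). Ndufb10, of complex I, was at 0.54 ± 0.151 (adjusted p = 0.224) and Cox4i1, of complex IV, at 0.45 ± 0.146 (adjusted p = 0.312). Of 47 tested cell cycle genes 0 passed in edgeR or DESeq2, 35 had negative values and the median was −0.12. At an unadjusted p under 0.05 there were 3 lower, against 814 of 17590 over all genes. The kinase Cdk2, the replication factor Mcm3 and the spindle factor Tpx2 were at −0.31, −0.38 and −0.32 (adjusted p of 0.390 or more), each without overlap between the lines. Among all genes tested 12.7% lay wholly lower in the mutant controls. Mki67, the proliferation marker, lay at 0.841, 1.12 and 1.07 FPKM in the mutant controls, against 1.03, 1.34 and 1.79 FPKM in the wild-type controls (−0.35 ± 0.195, adjusted p = 0.540), with overlap. Id1 and Id3, inhibitors of helix-loop-helix factors and targets of BMP signaling, were at −0.20 and 0.07 (adjusted p = 0.586 and 0.880), and Id3 was at −0.03 with library totals as scaling.

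**Figure D3:**
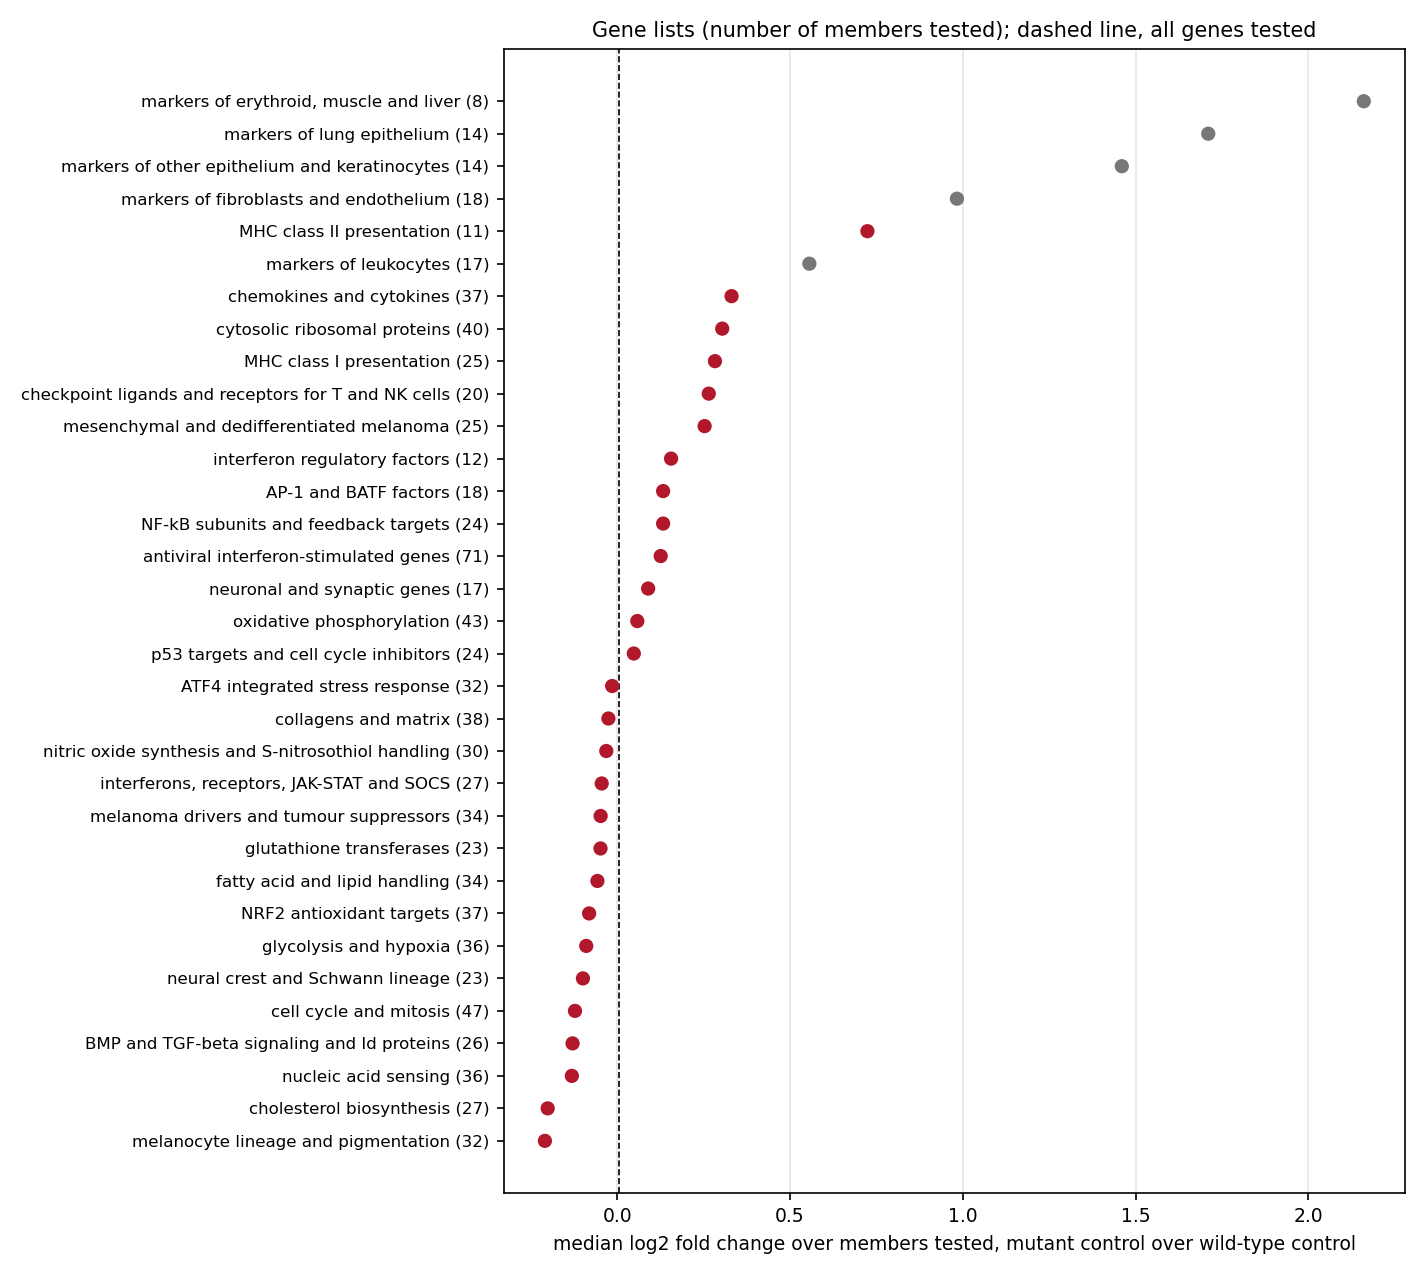
Median log2 fold change of mutant control over wild-type control for each gene list, with the number of members tested in brackets, red for lists of the studied cells and grey for markers of other tissues. The dashed line is the median of all genes tested (0.00). Markers of other tissues reach 2.16 on the right, MHC class II presentation stands at 0.72, and pigmentation and cholesterol synthesis lie farthest to the left, at −0.21 and −0.20.

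Markers of other tissues had positive medians. All 14 lung epithelial markers had positive values (median 1.71), and the medians were 1.46 for other epithelium, 0.98 for fibroblasts and endothelium, 0.56 for leukocytes and 2.16 for 8 tested genes of erythroid cells, muscle and liver. In these 5 lists 0 members passed in edgeR, with 1, 1, 7, 5 and 2 at an unadjusted p under 0.05 (10.7% of all genes) and 0, 0, 1, 0 and 1 called by DESeq2. With wild-type control 1 as the sole wild-type control the lung median was 0.23 and that for erythroid cells, muscle and liver 0.57. Scgb1a1 was at 36.9, 31.3 and 28.6 FPKM in the mutant controls, against 26.2, 0 and 0 FPKM in wild-type control 1, 2 and 3, and Hbb-bs, a beta-globin of red cells, at 15.6, 7.85 and 4.32 FPKM in the mutant controls, against 5.01, 0 and 0 FPKM in those wild-type libraries. Wild-type control 1 thus stood with the mutant libraries in these genes. With the term for the libraries that hold lung transcripts, 14 of the 29 genes still passed: 5830444B04Rik, Nqo1, Fabp3, Batf, Tmsb10, Neurl3, Bfsp2, Vac14, Irf7, Dpysl3, Mbp, Mgll, Pycard and Lhfpl4.

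Along the genome the 29 genes were spread over 13 chromosomes, with at most 5 on any of them, but the values of chromosome 16 as a whole stood apart. Of its 540 tested genes 420 (77.8%) had positive values, against 50.6% of all genes, and the median was 0.22. The medians of the other autosomes and chromosome X lay between −0.04 and 0.05. The median deviation of chromosome 16 genes was 0.11, 0.10 and 0.10 in the mutant controls, against −0.10, −0.11 and −0.07 in the wild-type controls, so the 3 libraries of each line lay together, wild-type control 1 included. The shift ran along the whole chromosome, with medians of 0.17 to 0.26 in bins of 20 Mb. Against the IFNα-treated wild type the IFNα-treated mutant had a median of 0.17 there, with 67.8% of values positive. With wild-type control 1 as the sole wild-type control the resting median was 0.20, with the lung term 0.22, and with library totals as scaling 0.13, where that of all genes was −0.09. Only Apod passed on chromosome 16, 1 of 540 tested, against 0.165% of all genes. DESeq2 called 20 of these 540 genes, and 232 of all 27503 genes, which include genes of low count that edgeR did not test. Mx1, Mx2, Sod1, Txnrd2, Ifnar1, Ifnar2 and Il10rb, a receptor chain for interferon lambda and IL-10, all lie on chromosome 16. Il10rb was at 12.3, 12.4 and 12.2 FPKM in the mutant controls, against 10.5, 10.8 and 11.2 FPKM in the wild-type controls, without overlap (0.29 ± 0.101, adjusted p = 0.343).

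**Figure D4:**
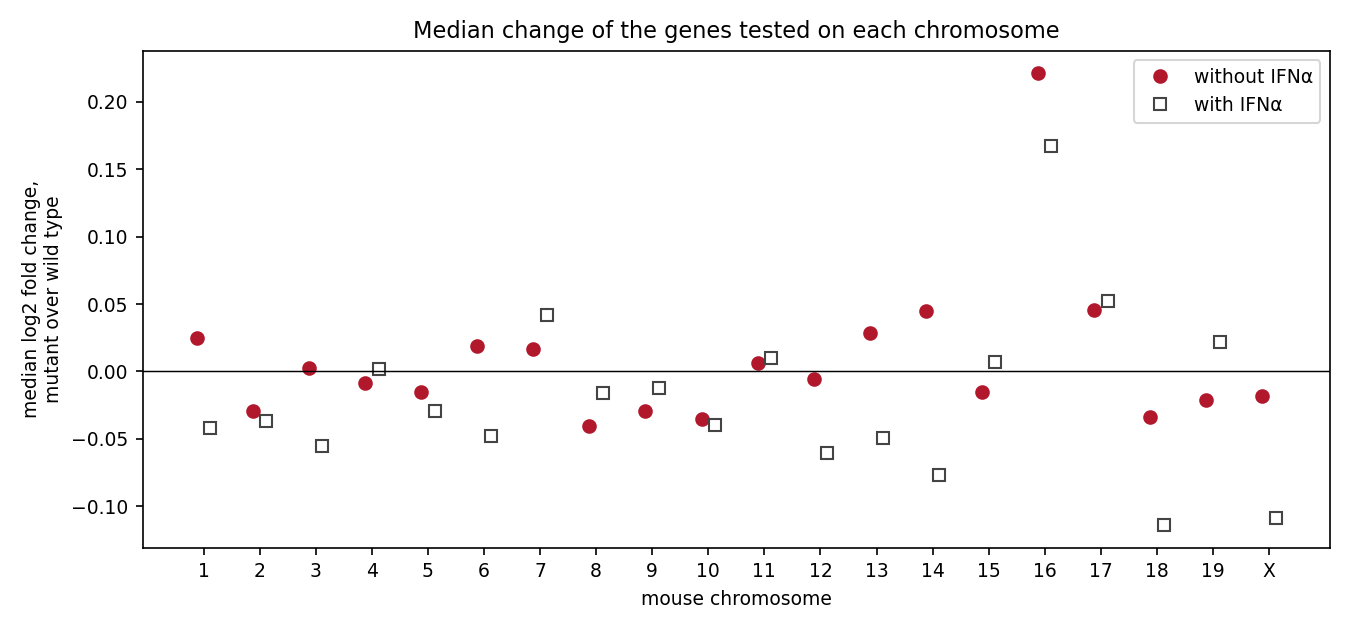
Median log2 fold change, mutant over wild type, of the tested genes on each mouse autosome and chromosome X, without IFNα (red circles) and with IFNα (open squares). Chromosome 16 stands at 0.22 and 0.17, and the other chromosomes shown lie between −0.04 and 0.05 without IFNα.

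The IFNα-treated libraries allow the difference between the lines to be read again in 6 other libraries, which entered the same fit. Lung transcripts were unevenly spread in these too, but in the opposite direction. Their markers summed to 0.791, 0.315 and 74.2 CPM in the mutant IFNα libraries, against 53.5, 50.8 and 67.3 in the wild-type IFNα libraries. Between mutant IFNα and wild-type IFNα 105 genes passed (0.597% of those tested), 83 higher and 22 lower, and 18.5% of genes did not overlap between the lines. All 29 genes called at rest had a value in the same direction there, 27 of them without overlap, and 20 passed. The shared 20 are 69% of the calls at rest and 19% of the calls with IFNα. Pycard was at −4.47 ± 0.305, Nqo1 at 3.62 ± 0.344, Mbp at −1.67 ± 0.123, Fabp3 at 1.896 ± 0.154 and Mgll at −1.81 ± 0.16 with IFNα, each past the threshold. Irf7 was at −0.62 ± 0.167 and did not pass (adjusted p = 0.114), and Ptn, Gm8543, Gm47692, Prr7, Trmt61b, Tmsb10, Tspan2 and Dpysl3 missed it too. Whether the difference changed with IFNα was tested by an interaction term, which passed for 0 of 17590 genes in edgeR, with 909 at an unadjusted p under 0.05, 5 of them among the 29, and for 14 genes in DESeq2. The smallest adjusted p of an interaction among the 29 was 0.916. Irf7, Dpysl3 and Lhfpl4 had interaction values of 0.61, 0.75 and 0.99, meaning a smaller deficit with IFNα. Ptn, Gm8543 and 5830444B04Rik were at −1.09, −1.01 and −3.965, meaning a smaller excess. Differences were larger with IFNα in Neurl3 (0.54) and Pycard (−0.49), among others. None of these interactions was called, and the 29 genes were picked by their values at rest, which enter the interaction.

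**Figure D5:**
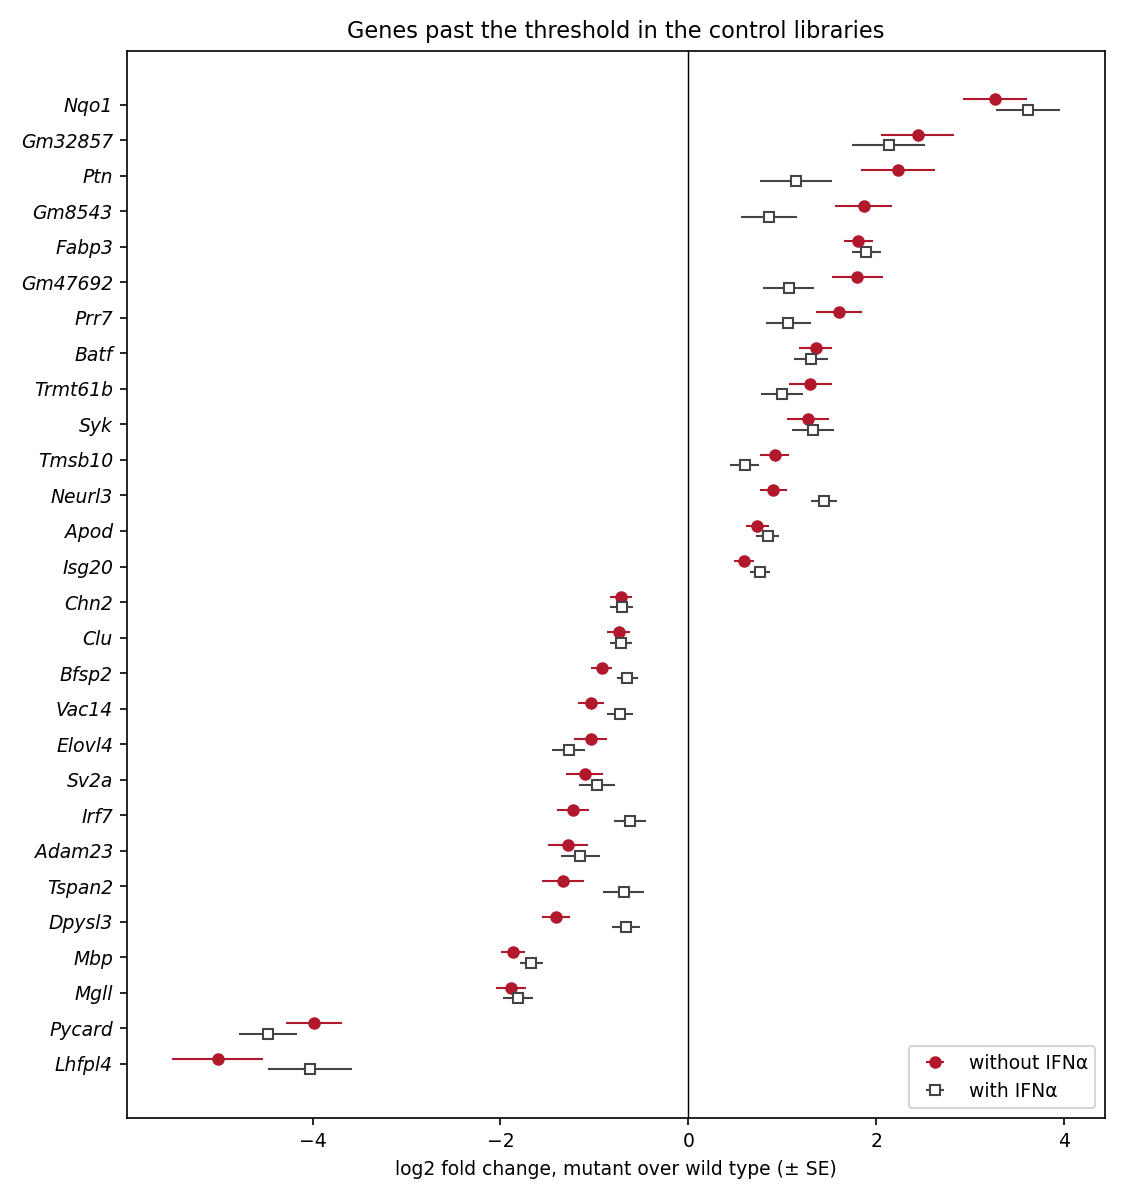
Log2 fold change, mutant over wild type, with its SE, of 28 of the 29 genes called at rest, without IFNα (red circles) and with IFNα (open squares), leaving out 5830444B04Rik, whose wild-type controls are at 0. Each gene lies on the same side of 0 in both, and Pycard and Lhfpl4 lie farthest left.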

How the data were processed

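RNA of 12 libraries of B16F10 cells was measured, and the sample labels gave their groups and replicate numbers. Paired-end libraries were made from poly(A) RNA with molecular identifiers and dUTP to mark the strand, per the labels' protocols. Per the submitters' processing notes, which give no roles, the genome build was GRCm38 and the tools included StringTie 1.3.4d, HISAT2 2.0.4, edgeR, DESeq2, cutadapt 1.9 and UMI-tools. The authors deposited 1 table with a count and an FPKM per gene and library. The file headers name 1 column per library as a count, and its values are whole numbers. Of the counts from 1 to 30, 33.7% were multiples of 4, where 23.3% of those whole numbers are, so counts do not stand for single fragments, and Poisson error would be too small. The file headers name the other column per library as FPKM, a measure divided by transcript length and library depth. How the authors computed it is not in the headers. Positions of genes follow the deposited table, whose starts differ from the GRCm38 annotation, while codon and start-region positions are GRCm38.

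Counts were tested with edgeR 4.0.16 (R 4.3.3), TMM scaling, the default filter on low counts and the quasi-likelihood test in 1 fit over 4 group means of all 12 libraries, two-sided, with Benjamini-Hochberg adjustment over all genes and a threshold of 0.05. Levels are FPKM per library. Alternatives used DESeq2 1.42.0, limma 3.58.1 on log2(FPKM + 1) of genes with FPKM of at least 1 in 3 libraries, other scalings, filters and pseudocounts, a replicate block, a term for libraries whose lung markers exceed 10 CPM, and each library left out. With wild-type control 1 as the sole wild-type control, that library is assumed to vary like the other groups. Gene lists are described by counts and medians, with no test of a list. The code was tested on simulated counts.

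The genes named are Irf7, the called genes that changed most, up to 15 in each direction, if the lines did not overlap, the higher line averaged 2 FPKM or more and the symbol was not a predicted one (7 higher and 8 lower met this), a set of genes reported whatever their result, and those members that came first by adjusted p in each list. Other genes carry the remark that they were chosen with values in view. The members and lists were chosen with earlier results of these data known. Where a symbol stands on more than 1 line of the table (30 symbols), the line with the largest count was used.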

Additional observations from a re-analysis of the deposited data

How the results depend on the processing

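The number of genes called at rest was 29, and 29 with DESeq2 size factors, 25 with library totals as scaling (10 higher and 15 lower, 40% higher against 51.7%), 21 without a filter, 38 with robust estimation, 29 with the 6 control libraries alone (20 of them among the 29), 35, 34 and 20 in the limma fits, and 21 with the lung term. It was 232 in DESeq2 (138 higher, 94 lower) and 6 with wild-type control 1 as the sole wild-type control, and 11 to 58 when 1 library was left out. Between libraries of the same replicate number the correlations of deviations were 0.12, 0.15 and −0.02. Mutant control 1 and 2 were closest to the wild-type control of their own number, and mutant control 3 to wild-type control 2 (0.03). A replicate block gave 17 calls over 12 libraries and 13 over the 6 controls. DESeq2 called 632 genes with IFNα against 105, and 14 interactions against 0. All 29 genes kept their direction wherever a value could be had. The median over all genes moved to −0.09 with library totals and to −0.11 at most in limma. Signs turned in genes that were not past the threshold. With library totals they were B2m (−0.011), H2-D1 (−0.019), Id3 (−0.029), Ifnar1 (−0.033) and Stat2 (−0.043). In the limma fits they were the same genes: B2m (−0.013 in all 3), H2-D1 (−0.021 in all 3), Id3 (−0.026 in all 3), Ifnar1 (−0.025 with pseudocount 1, −0.032 with 0.1) and Stat2 (−0.034 with pseudocount 1, −0.041 with 0.1). With the lung term they were B2m (−0.20), Ifnar1 (−0.0036), Irf9 (0.0058), Nlrc5 (0.075) and Nos3 (0.098). With wild-type control 1 as the sole wild-type control they were B2m (−0.15), Cxcl10 (0.045), Ifnar1 (−0.077), Nos1 (1.34) and Rsad2 (−0.12). The cause was not tested. With 1 library left out, the ranges that spanned 0 were B2m −0.048 to 0.19, Cxcl10 −0.11 to 0.011, Id3 −0.018 to 0.14, Ifit1 −0.23 to 0.18, Ifnar1 −0.0071 to 0.12, Irf9 −0.079 to 0.025, Nlrc5 −0.36 to 0.018, Nos3 −0.31 to 0.18 and Stat2 −0.061 to 0.16. Low counts limit what can be said of Nos1, Nos2 and Ifna4, and 3 libraries a line cannot give an exact permutation p under 0.1.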
